A study of Homo sapiens and Mus musculus with 21 samples.

Results

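The 8 genes described here encode the enzymes that build the 5′ cap of messenger RNA and the proteins that bind it in the nucleus: RNGTT, RNMT, RAMAC, CMTR1, CMTR2, NCBP1, NCBP2 and NCBP3. They were picked by name from the 20056 protein-coding genes of the GRCh38 reference. Of the 8, 7 had a listed m6A site in HEK293T cells. The study deleted PCIF1, a cap-associated adenosine methyltransferase, in HEK293T, a transformed line from human embryonic kidney. The miCLIP data used here are 1 library of wild-type cells (WT) and 2 of PCIF1 knockout cells (KO), made with an antibody against N6-methyladenosine from polyadenylated RNA. The labels give no treatment or drug for these libraries, and do not say how many clones the KO libraries come from or whether replicates were separate cultures. Input RNA and ribosome-protected fragments, each of 2 WT and 3 KO libraries, were used for neighbouring genes only. So was a deposited stability ratio from SLAM-seq, which had 1 WT and 1 KO library at each chase time of 0, 6 and 12 h.

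The cap is made as soon as the transcript leaves the polymerase. RNGTT trims the 5′ triphosphate and adds a guanosine, and RNMT, activated by its small partner RAMAC, methylates that guanosine. CMTR1 and CMTR2 then methylate the ribose of the first and the second transcribed nucleotide, and when the first is an adenosine, PCIF1 can add an N6-methyl group to give m6Am. In the nucleus the cap is held by NCBP1 and NCBP2, which form the cap-binding complex, and NCBP3 has been described as a further cap-associated protein.

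Both layers of methylation were read for these genes. In miCLIP, crosslinking the antibody leaves C-to-T substitutions beside methylated adenosines, and the authors listed those in the sequence context DRACH (D is A, G or T, R is A or G, and H is A, C or T) as m6A sites, called per library. The m6Am regions come from 1 list with a score per region, which the authors named strict and putative. The WT list held 43663 sites, with a median of 30 reads at a site, and the KO lists held 40768 and 47644, with medians of 37 and 42. The span of PCIF1 held sites with 63 and 85 reads in WT. Each KO library had 1 site there, at different positions, with 8 reads in KO replicate 1 and 5 in KO replicate 2. Of 5 HEK293T markers, IRS4 held 69, 58 and 60 sites in WT and KO replicates 1 and 2, LIN28B, INA and NEFL had sites in WT and PAX2 only in KO replicate 2. The 13 fibroblast, blood and endothelial markers together held 1 site in WT, 0 in KO replicate 1 and 1 in KO replicate 2. RNA counts of the 8 cap genes are not analysed here, because no table used pairs their Ensembl identifiers with names, and 0 of the 8 are in the authors' class tables. The mouse fibroblast lists were not used here, as they could not be tied to these genes.

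Because m6Am can form only where transcription begins with an adenosine, the sequence at each annotated start is shown first. Starts and sequences are from RefSeq (GRCh38.p14), where 6 of the 8 genes matched, CMTR2 with 2 starts. RNMT and NCBP1 had no entry. Each line gives 20 bases before the start and 10 from it, 5′ to 3′ on the strand of the gene, and the capital letter is the annotated first base. The first 3 lines are the genes with an m6Am region over that base.
NCBP2: gcctcgtgccgggagtcgccGcattgtggt
NCBP3: gccgtgaggggcgggctctcAgtggtgcgg
CMTR1: gtcatcaggctgcgctgcccGcagtactgg
RAMAC: gcccgccggaagcggaagtcAggtggttgt
RNGTT: tcgggggcggaagttgcggtGcattgtggg
CMTR2, outer start: tgaaagcccttggggccagcAgccagtgag
CMTR2, inner start: gcgcgtgcgcagtgggacttGagtgcctcc

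NCBP3, RAMAC and the outer start of CMTR2 began with A in this annotation, each after a C. The annotated base of NCBP2, CMTR1 and RNGTT was G, with the first A at base 3 in each, and at the inner CMTR2 start the first A was base 2. Among all 35116 annotated starts of the same table, 44.4% had A as the first base and 65.4% had an A in the first 3 bases. At the 1869 starts with an m6Am region within 50 nt the shares were 57.6% and 74.1%. The annotation gives single positions while start sites often spread over several bases, so these letters describe the annotation and not the base that was methylated.

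NCBP2, NCBP3 and CMTR1 had an m6Am region at a start, and the other 5 cap genes had none anywhere in their spans. The NCBP2 region (chr3:196942451-196942550, minus strand) had a score of 3.65, rank 404 of 2360 regions. That of CMTR1 (chr6:37433201-37433300, plus strand) had 3.05, rank 947, and that of NCBP3 (chr17:3846201-3846250, minus strand) had 2.66, rank 1582. All 3 covered the annotated first base shown above. The scores are the authors', on a scale from 2.01 to 5.88 with a median of 2.90 and no stated unit. Set against the outermost end of the gene span, only NCBP2 and NCBP3 (2 of 8) had a region within 50 nt, against 8.89% of protein-coding genes and 16.0% of those with an m6A site in WT. CMTR1 was not among them because its span in the reference begins at 37423985, 9216 bp before the region, while the start of the promoter table lies at 37433221. With promoter table starts the count was 3 of 6 genes, against 11.0% of the 15843 protein-coding genes with such a start. Those genes include silent ones, and the share among genes with an m6A site in WT is not given for these starts. The list is a single one without replicates, and its regions are named putative. Beyond the word strict in its name, the sources used here give no account of its selection. A lack of a region at RAMAC, RNGTT, CMTR2, RNMT or NCBP1 therefore does not show that m6Am is absent there. Not every region lay at a start. The region ranked 149 (chr20:45947651-45948000, plus strand, score 4.15) covered both WT m6A sites of PCIF1 and was not within 50 nt of its start.

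**Figure D1:**
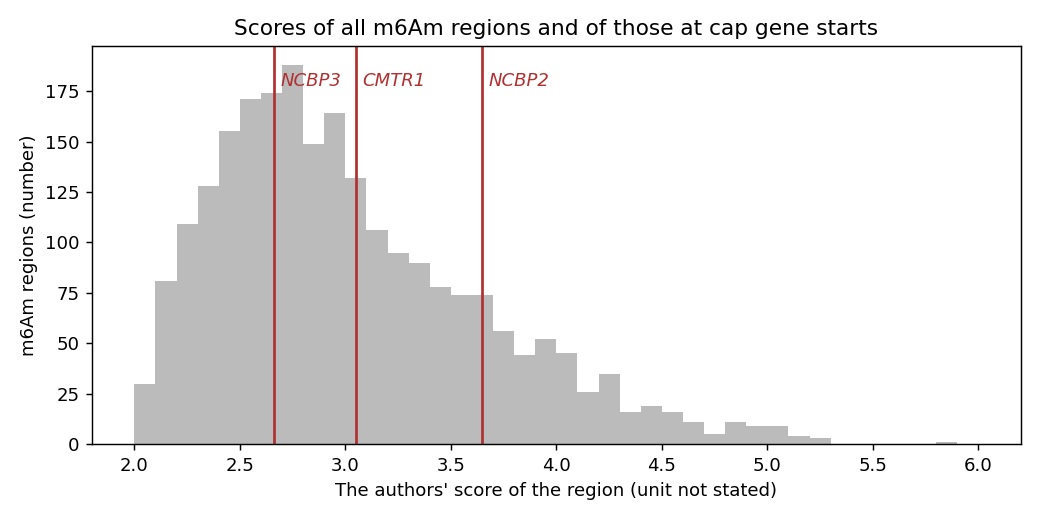
Number of m6Am regions (y axis) by the authors' score (x axis, unit not stated), with vertical lines at the regions over the starts of NCBP3 (2.66), CMTR1 (3.05) and NCBP2 (3.65). NCBP3 lies below the median of 2.90, and CMTR1 and NCBP2 lie above it.

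Internal m6A sites were found in every cap gene but RAMAC, whose span of 4848 bp held none in any of the 3 lists. WT had sites in 6 of the 8 genes (75%, against 47.7% of protein-coding genes), and each KO library in 7 (87.5%, against 46.6% and 48.5%). The genes outside the list include silent ones, so this background is low for genes used in every cell. Together the 8 genes held 36 sites in WT, 24 in KO replicate 1 and 39 in KO replicate 2, at 72 distinct positions. NCBP3 alone held 12, 9 and 12 of them, and without it the totals were 24, 15 and 27. The KO libraries thus lay on both sides of WT. A single WT library allows no test between genotypes.

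The place of the adenosine within a listed site was settled on the reference. For all 704 sites of the 3 lists that fell in a promoter window, the 5 listed bases were found there with the listed coordinate at base 4, the C. The adenosine is therefore the base before the coordinate in the 5′ to 3′ direction of the strand. On the minus strand that base has the higher genomic coordinate. Positions below are those of the lists, and in their 5 bases the capital marks the adenosine.

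Of the capping enzymes, RNGTT (chr6:88609897-88963618, minus strand) had 3 sites in WT, 5 in KO replicate 1 and 6 in KO replicate 2. Its span covers 353722 bp, yet 6 of its 11 positions lay within a stretch of 718 bp that ends 1743 bp before the end of the gene. At position 88612357 (aaAct), the only one in all 3 lists, 15.0% of 20 reads were substituted in WT (exact 95% interval 3.21 to 37.9%), 11.5% of 26 in KO replicate 1 (2.45 to 30.2%) and 13.0% of 23 in KO replicate 2 (2.78 to 33.6%). The 3 libraries overlapped widely there, on 3 substituted reads each. The 2 positions deep inside the span, 88904882 in WT and 88890560 in KO replicate 1, had 6 and 4 reads and were each listed once.

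RNMT (chr18:13726673-13764556), the cap guanosine methyltransferase, had 5 sites in WT, 3 in KO replicate 1 and 7 in KO replicate 2. Of its 11 positions, 3 lay together near the left end of the span, at 13731639, 13731657 and 13731745, and 5 within 811 bp near the right end. The other 3, at 13734568, 13741554 and 13760150, lay apart. At 13731657 (agAct), 4 of 67 reads (5.97%, 1.65 to 14.6%) in KO replicate 1 and 6 of 72 (8.33%, 3.12 to 17.3%) in KO replicate 2 were substituted. That position was not in the WT list, whose only site in the group, 13731745 (agAca), had 2 of 13 reads substituted (15.4%, 1.92 to 45.4%), against 3 of 28 in KO replicate 1 (10.7%, 2.27 to 28.2%). The WT site there had fewer reads than any of the 4 KO ones, and the number of WT reads at an unlisted position is not given in the lists. None of the 11 RNMT positions was in all 3 lists, and 1 carried the GGAC core. All lay on the plus strand, and the tables used give no strand for RNMT.

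CMTR1 (chr6:37423985-37481508, plus strand), which methylates the ribose of the first nucleotide, had 5 sites in WT, 2 in KO replicate 1 and 3 in KO replicate 2. Of its 8 positions, 6 lay within 357 bp, from 1414 to 1058 bp before the end of the gene, and 4 had the GGAC core. At 37480450 (ggAca) 6.25% of 48 reads were substituted in WT (1.31 to 17.2%) and 11.3% of 62 in KO replicate 1 (4.66 to 21.9%). At 37480246 (ggAct) the shares were 7.69% of 26 reads in WT (0.946 to 25.1%) and 9.52% of 42 in KO replicate 2 (2.66 to 22.6%). The higher share was in KO at both, well within the counting error. The remaining 2 positions, 37435647 and 37450307, were in WT alone, with 11 and 10 reads.

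CMTR2 (chr16:71281392-71289722, minus strand), its counterpart for the second nucleotide, had more positions than any cap gene but NCBP3, in a span of 8331 bp, and 11 of its 12 positions were in 1 list only. It held 5 sites in WT, 3 in KO replicate 1 and 5 in KO replicate 2. The shared one, 71285677 (aaAct), had 17.6% of 17 reads substituted in WT (3.80 to 43.4%) and 12.8% of 39 in KO replicate 2 (4.30 to 27.4%). The site with the most substituted reads, 71285045 (aaAct), had 7 of 44 in KO replicate 2 and was in neither other list. CMTR2 sites had a median of 14 reads in WT and 16 in KO replicate 1, against 39 in KO replicate 2. None lay near the end of the span: the nearest was 2133 bp from it.

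**Figure D2:**
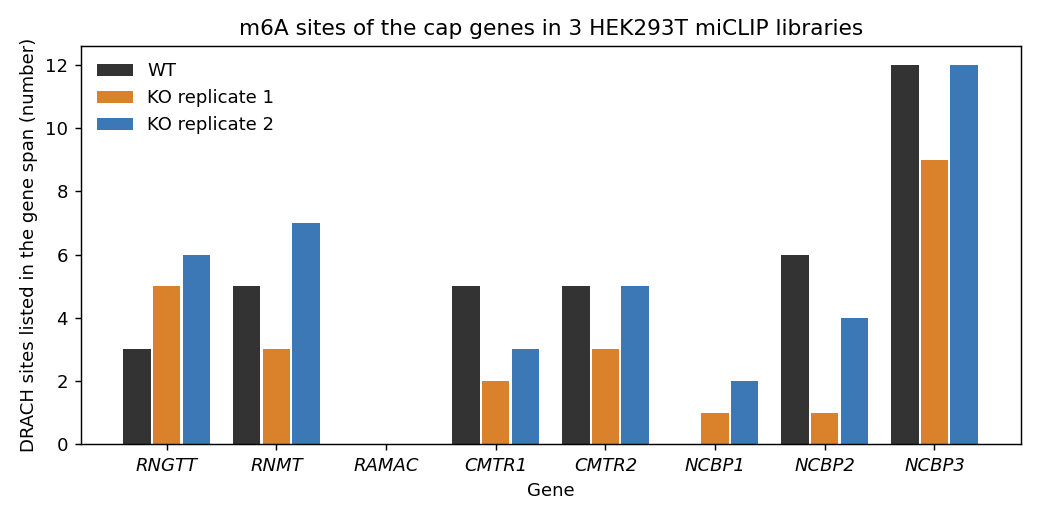
Number of listed DRACH sites (y axis) in the span of each cap gene (x axis) in the WT, KO replicate 1 and KO replicate 2 libraries (bars, 1 library each, so no error is drawn). NCBP3 has 12, 9 and 12, the other genes have 7 or fewer, and RAMAC has none.

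The subunits of the cap-binding complex differed from each other. NCBP1 (chr9:97633821-97673748), the large subunit, had no site in WT, 1 in KO replicate 1 (97673575, 2 of 4 reads) and 2 in KO replicate 2 (97668900, 2 of 22 reads, and 97672629, 3 of 11). None was listed more than once, and all 3 lie in a part of the span that the gene XPA also covers. XPA is on the minus strand and the sites are on the plus strand. The tables used give no strand for NCBP1. With so few reads, the absence of NCBP1 from the WT list cannot be told from a lack of depth.

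NCBP2 (chr3:196935406-196942528, minus strand), the small subunit, which contacts the cap directly, had 6 sites in WT, 1 in KO replicate 1 and 4 in KO replicate 2. Of its 7 positions 4 were in 2 lists and none in all 3. At 196939336 (gaAct) 6.12% of 49 reads were substituted in WT (1.28 to 16.9%) and 5.63% of 71 in KO replicate 2 (1.56 to 13.8%). At 196936862 (ggAca), absent from the WT list, the KO libraries had 4 of 53 reads (7.55%, 2.09 to 18.2%) and 3 of 62 (4.84%, 1.01 to 13.5%). The reads that KO replicate 1 had at the other 6 positions are not given in the lists.

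NCBP3 (chr17:3802158-3846246, minus strand) carried more sites than any other cap gene in all 3 libraries. Among protein-coding genes with a site, 7.18% had at least 12 in WT, 12.6% at least 9 in KO replicate 1 and 8.85% at least 12 in KO replicate 2, and the median was 3 in each library. Of its 20 positions, 12 lay in a stretch of 923 bp, from 10202 to 11124 bp before the outer end of the span. NCBP3 also held 4 of the 5 cap gene positions found in all 3 lists. At 3812601 (ggAca), 14.1% of 71 reads were substituted in WT (6.97 to 24.4%), 7.02% of 57 in KO replicate 1 (1.95 to 17%) and 6.67% of 90 in KO replicate 2 (2.49 to 13.9%). WT was the highest there.

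At 3812360 (aaAct), the deepest cap gene site, WT was instead the lowest: 3.55% of 169 reads in WT (1.31 to 7.57%), 9.09% of 99 in KO replicate 1 (4.24 to 16.6%) and 7.25% of 138 in KO replicate 2 (3.53 to 12.9%). At 3818351 (gaAct) the shares were 7.45% of 94 reads (3.05 to 14.7%), 3.30% of 91 (0.685 to 9.33%) and 4.30% of 93 (1.18 to 10.6%). At 3813006 (tgAca), WT lay between the KO libraries, with 28.0% of 25 reads (12.1 to 49.4%) against 11.1% of 18 (1.38 to 34.7%) and 50% of 18 (26.0 to 74.0%). No common direction was seen over the 4 positions.

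**Figure D3:**
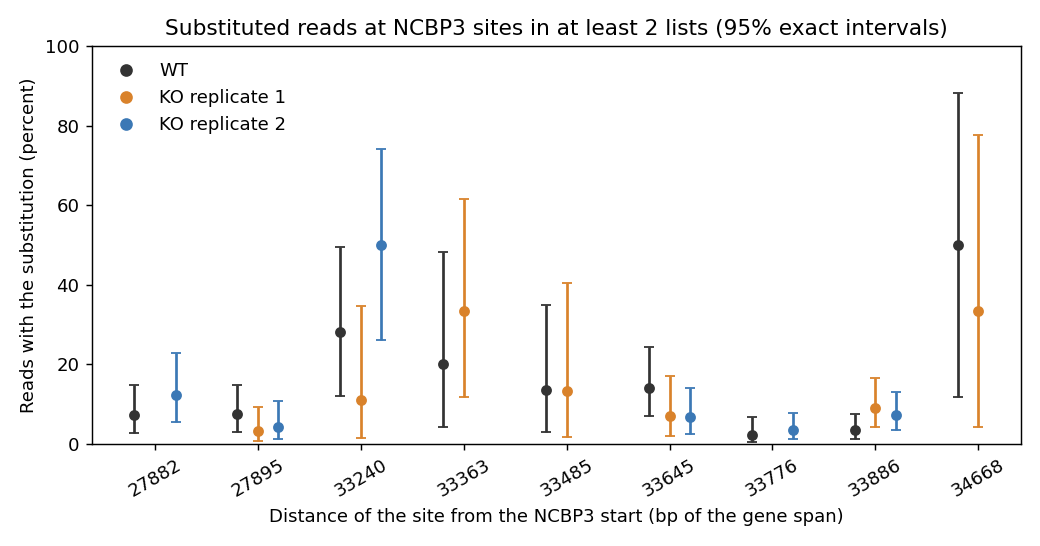
Percent of reads with the substitution (y axis) at the 9 NCBP3 positions in at least 2 lists, ordered by distance from the annotated start in bp (x axis), for WT, KO replicate 1 and KO replicate 2. Points are single libraries, bars are exact 95% intervals for counting error, and every WT bar overlaps the KO bars beside it.

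Over all cap genes, 23 pairs of a WT and a KO value could be formed at shared positions. The share was higher in WT in 14 and higher in KO in 9, and the exact intervals overlapped in all 23. The same counts were not made over all shared positions, so they do not set the cap genes apart. Of the 36 WT sites, 17 had only 2 substituted reads, which makes intervals wide and overlap likely. These intervals cover counting error only and treat reads as independent. PCR copies of a molecule can be among the reads, so the intervals may be too narrow. Where a position was in all 3 lists, its WT value entered 2 pairs. Positions enter a list only when they carry at least 2 substituted reads, so a site that lost its substitutions would be missing from these pairs.

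Most cap gene positions were listed in a single library, and their sites had fewer reads than sites in general. Of the 72 positions, 50 (69.4%) were in 1 list, 17 (23.6%) in 2 and 5 (6.94%) in all 3, against 67.4%, 19.9% and 12.7% of all 90876 positions. KO replicate 1 shared 10 of the 36 WT sites (27.8%, 14.2 to 45.2%), where it shared 37.4% of all WT sites, and KO replicate 2 shared 13 (36.1%, 20.8 to 53.8%), where it shared 42.4% of all. Both intervals hold the value of all sites. They treat the sites as independent, though 12 of the 36 lie in NCBP3, and so may be too narrow. Reads at cap gene sites had medians of 18.5, 15.5 and 23 in WT and KO replicates 1 and 2, below those of all sites (30, 37 and 42). Sites in 1 list had a median of 13 reads, those in 2 lists 23.5 and those in 3 lists 71, and for all sites these medians were 18, 44 and 95. Median depth thus rose with overlap in the cap genes as it did over all sites. Of the 5 cap gene positions in all 3 lists, however, 4 were in NCBP3. The other, RNGTT 88612357, had 20, 26 and 23 reads in WT and KO replicates 1 and 2, near the median for 2 lists. The cap gene rise from 2 to 3 lists therefore rests on NCBP3. The part of depth in the overlap was not tested.

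The GGAC core, the most frequent one over all sites, stood at 17 of 72 positions (23.6%, 14.4 to 35.1%), against 32.1% of all positions, with GAAC at 26.4% (all 19.5%), AAAC at 18.1% (12.8%), TGAC at 15.3% (11.7%), AGAC at 13.9% (19.8%) and TAAC at 2.78% (4.16%). The interval of the GGAC share includes the value of all positions, so a difference was not detectable at this number. It treats the 72 positions as independent, though 20 of them lie in NCBP3, and so may be too narrow. By library the share was 19.4% of 36, 20.8% of 24 and 30.8% of 39 sites, against 34.0%, 34.4% and 34.4%.

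Most positions lay toward the end of the span, in the direction of transcription. The median cap gene site lay at 76.0%, 77.7% and 77.8% of the span in WT and KO replicates 1 and 2. Over all sites that lie in exactly 1 protein-coding gene of known strand, it lay at 84.5%, 85.9% and 85.1%. Sites in RNMT and NCBP1, whose strand is not given, were kept among the cap gene sites and placed by the strand of the site. Beyond 80% of the span lay 10 of 36, 10 of 24 and 17 of 39, against 55.6%, 57.2% and 56.0%. The NCBP3 stretch and all CMTR2 positions lie before that mark. The positions of a gene share its transcript and are not independent, and exons were not used here.

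**Figure D4:**
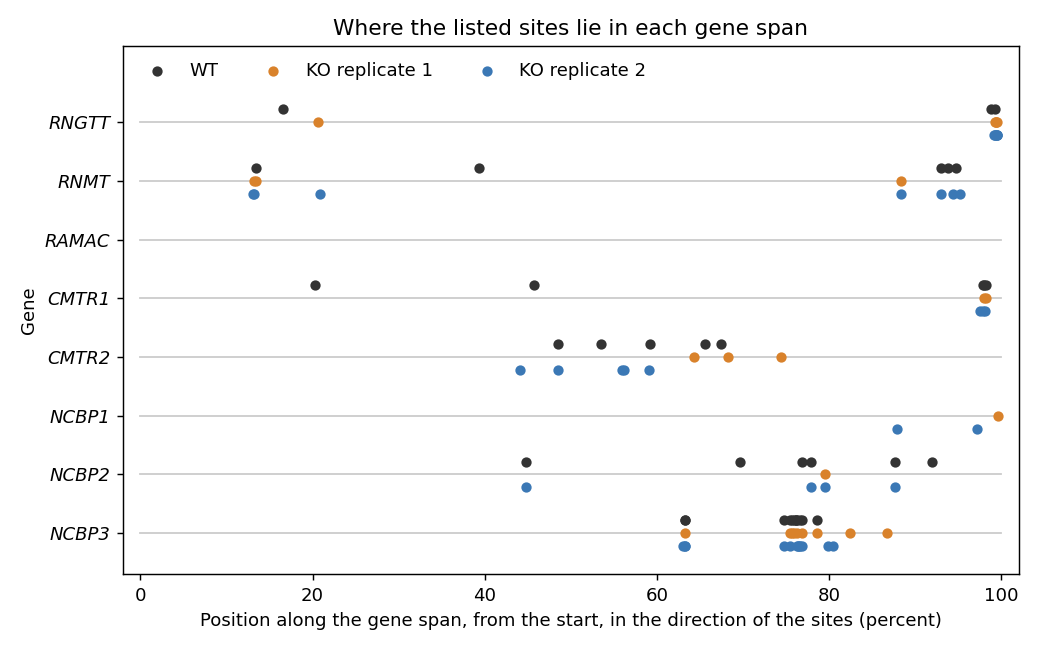
Position of each listed site along the gene span in percent (x axis, from the start, read in the direction of the sites' strand) for the 8 cap genes (y axis), with WT, KO replicate 1 and KO replicate 2 as separate points. RNGTT and CMTR1 sites sit mostly at the far right, RNMT sites lie mostly toward either end, and 12 of the 20 NCBP3 positions lie between 74.8 and 76.9%.

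A list of 33 genes that act beside the cap was chosen with earlier results of these data known: cap-dependent export (ALYREF, the THO subunits, NXF1), partners of the cap-binding complex (SRRT, ZC3H18, PHAX), cap decay (DCP2, DCPS, DXO), transcription factors that recruit the capping enzyme (SUPT5H, SUPT4H1) and methyl donor supply (MAT2A, AHCY). Of these, 25 had an m6A site in WT, 27 in KO replicate 1 and 29 in KO replicate 2, against 6, 7 and 7 of the 8 cap genes and 47.7%, 46.6% and 48.5% of protein-coding genes. Their median number of sites was 2, 3 and 3, against 5, 2.5 and 4.5 in the cap genes. PHAX, the export adaptor of small nuclear RNA, had 6, 10 and 11 sites, and NXT1, the partner of NXF1, had 9, 8 and 6. An m6Am region lay within 50 nt of the outer start in 8 of the 33, against 8.89% of protein-coding genes and 16.0% of those with an m6A site in WT. The highest scores were at SUPT4H1 (4.81), KPNA2 (4.58) and DDX39B (4.23). Promoter table starts gave 10 of 29 (11.0% of protein-coding genes), adding AHCY (4.11) and NUDT16 (2.47).

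The class tables tie 7 of these neighbours to RNA counts, and none passed the test of KO against WT. Over all 14629 genes tested in the input, edgeR's quasi-likelihood test with Benjamini-Hochberg adjustment called 5 (0.0342%), all lower in KO. The median log2 fold change of the 7 was -0.00, against -0.02 for all genes. DCP2, the decapping enzyme, had 59.1 and 86.5 CPM (counts scaled to a common library size) in WT and 99.7, 108 and 87.3 in KO (log2 fold change 0.44, SE 0.16, edgeR adjusted p = 0.513). KPNB1, an importin, had 625 and 402 CPM in WT and 400.2, 387 and 389 in KO (-0.39, SE 0.14, edgeR adjusted p = 0.513). WT replicate 1 held the extreme value of both genes. ZC3H18 (0.05, SE 0.09), AHCY (0.01, SE 0.09), KPNA2 (-0.06, SE 0.10) and ALYREF (-0.14, SE 0.11) had edgeR adjusted p from 0.710 to 0.975.

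Without WT replicate 2, where the lone WT library is assumed to vary like the KO ones, edgeR called 1912 genes (12.4% of those tested), among them DCP2 (0.76, adjusted p = 3.85e-05) and KPNB1 (-0.65, adjusted p = 4.83e-10), and with no filter on low counts it called 152 (0.496%), KPNB1 among them (-0.39, adjusted p = 0.0158). Without WT replicate 1, KPNB1 was at -0.02 and DCP2 at 0.20. In the ribosome-protected fragments and in translational efficiency, the fragments relative to input, edgeR called none of the 785 genes (0% in both), with 30 and 53 at an unadjusted p under 0.05, and DESeq2 called 0 and 2. Of the 6 neighbours listed there, ALYREF, an export adaptor, had the largest efficiency change upward (log2 0.54, SE 0.23, edgeR adjusted p = 0.615) and KPNA2, an importin, downward (-0.52, SE 0.25, edgeR adjusted p = 0.615). KPNB1 (0.35, SE 0.33), NXF1 (0.18, SE 0.45) and ZC3H18 (-0.20, SE 0.31) lay between them. Without WT replicate 2, KPNA2 was at -0.0047 and ALYREF at 0.29, and edgeR called 14 genes (1.78%), KPNB1 among them (1.37, adjusted p = 0.0096). Without WT replicate 1, KPNA2 was at -0.81, ALYREF at 0.73 and KPNB1 at -0.33. The stability ratio of DCP2 in the authors' deposited table was 0.902 (KO over WT), with no error given. It belongs to the SLAM-seq part of the study, which follows labelled RNA through a chase, with 1 library per genotype at each of 0, 6 and 12 h and so no replicates.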

How the data were processed

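The deposited m6A lists give, per position and library, the count of substituted reads and, in the name field, all reads. Their caller is not given in the sources used here. Tools named in the submitters' processing notes, with no role, are BWA 0.7.17, STAR, bedtools and deepTools. The deposited input and fragment tables hold raw counts per Ensembl gene, the m6Am list a score per region from the authors, the deposited stability table a ratio, and the deposited efficiency table log2 changes with the authors' adjusted p-values. Of per-sample columns, 0 were left over. The 5 input libraries held 4511687 to 5960674 counts. The 785 fragment genes held from 17665 counts in WT replicate 1 to 124580 in KO replicate 1.

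Sites were assigned to a gene by span (RefSeq, GRCh38.p14), without strand, and regions by a start within 50 nt on their strand. Intervals are exact Clopper-Pearson at 95%. For counts, the test was edgeR 4.0.16 (R 4.3.3; robust quasi-likelihood, TMM, filterByExpr for the input, Benjamini-Hochberg, threshold 0.05), with DESeq2 1.42.0 as an alternative. The fits were tested on simulated data. Efficiency was the interaction of genotype and library kind over 10 libraries. The labels name no separate cultures, so p-values may reflect technical spread alone. Members and lists were chosen with earlier results of these data known. All 8 members were to be named, and of the neighbours those called or the 3 largest changes in each direction. Member RNA fits and their most similar genes, planned for the input, were not run, as names could not be matched. Lists were handled in Python 3.11.15.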

Additional observations from a re-analysis of the deposited data

How the results depend on the processing

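Requiring at least 5 substituted reads left 5, 3 and 8 cap gene sites in WT and KO replicates 1 and 2, and at least 10 left 1, 0 and 1. Counting only the strand of the gene, where known, changed none of these totals. With scores above the median only, and the outer end of the span as start, 1 cap gene kept a region at its start, with 200 nt or a region over the start 2, and with promoter table starts, added after the data were seen, 3.

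Genes called in the input numbered 15 with DESeq2, 152 with no filter, 3 with the replicate block, and 2 to 1912 when single libraries were left out, the highest without WT replicate 2. In the fragments there were 6 with the replicate block and 0 to 3 without single libraries, and for efficiency 2 with DESeq2 and 0 to 14 without single libraries. The replicate numbers are not stated to pair libraries, and deviations of same-numbered input libraries correlated at 0.16 and -0.00, and those of fragment libraries at 0.19 and 0.21. Of the neighbours' log2 changes, these turned in sign. In the input, NXF1 was at 0.018 with DESeq2 and 0.017 with RLE scaling, and with the replicate block NXF1 was at 0.012, AHCY at -0.030 and ZC3H18 at -0.0096. In the fragments, KPNB1 was at -0.0081 with DESeq2 and -0.0057 with RLE scaling. Leaving out single libraries gave input ranges of -0.063 to 0.12 (AHCY), -0.24 to 0.0041 (ALYREF), -0.15 to 0.072 (KPNA2) and -0.074 to 0.11 (NXF1). Fragment ranges were -0.16 to 0.16 (AHCY), -0.41 to 0.67 (KPNB1), -0.55 to 0.60 (NXF1) and -0.57 to 0.024 (ZC3H18). Efficiency ranges were -0.20 to 0.18 (AHCY), -0.33 to 1.37 (KPNB1), -0.46 to 0.51 (NXF1) and -0.64 to 0.052 (ZC3H18). The cause of these changes was not tested.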
